A study of Mus musculus with 12 samples.

Results

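The probes described here are the passenger-strand, or star, probes of a mouse microRNA (miRNA) array. They are the probes whose name holds a mouse miRNA ending in an asterisk, other than miR-34c*, miR-31*, miR-9*, miR-483*, miR-712* and names of the miR-297, miR-466, miR-467 and miR-669 families. By this rule 104 of the 595 mouse miRNA probes were members, and 9 other mouse star probes were left out. For 103 of the 104 the array also held the probe of the same name without star, called the partner here, and these partners were 99 distinct probes. The exception was miR-125b*.

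The samples were livers of male B6C3F1 mice, given as 27 to 30 days old. In the BaP group (n = 6), the mice received benzo(a)pyrene, a polycyclic aromatic hydrocarbon that liver enzymes convert into DNA-binding products, at 150 mg/kg on each of 3 days. In the vehicle group (n = 6), the mice received only the corn oil that also carried the BaP. The median lobe was taken 4 h after the last dose in both groups. Each of the 12 arrays carried 1 liver RNA in the Hy5 channel and the same purchased pool of RNA from 10 mouse tissues in the Hy3 channel, with 4 spots per probe. The dyes were never exchanged, so each liver over pool ratio includes the dye bias of its probe, and the ratio of one probe can be set against another only with that limit. Arrays are not tied to individual animals in the labels, and the spread behind every p-value is that among the 12 arrays.

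A miRNA hairpin is cut into a short duplex, of which one strand, the guide, is loaded into an Argonaute protein and pairs with target transcripts mainly through its seed, the bases near its 5′ end. The other strand, the passenger, is usually degraded, and older nomenclature marked the less abundant strand with a star. For some hairpins both strands are loaded, and for some the strand called a star was later found to be the commoner one, as for miR-140. The star and the guide of a duplex have different seeds, and so different predicted targets.

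The 22 star probes that could be tested in liver (defined below) were matched to RefSeq mature miRNAs (GRCm38.p6) in 21 cases, by the arm each name stands for. For miR-196a* no single locus could be assigned. The 21 strands are 10 from the 5′ arm and 11 from the 3′ arm of their hairpins, 21 to 23 bases long, with a median GC content of 45.5% (36.4% to 63.6%). They hold 20 distinct seeds. Of the 21, 13 have a seed found in no other mouse mature sequence of the RefSeq table. The strands shown first are the stars with the highest liver over pool ratios in the scaling used for the tests, with their partners. They are written 5′ to 3′ with the seed (bases 2 to 8) in capitals.

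miR-433*: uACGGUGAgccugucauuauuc
miR-433: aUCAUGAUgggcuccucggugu
miR-872*: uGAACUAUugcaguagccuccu
miR-872: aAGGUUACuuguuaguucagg
miR-22*: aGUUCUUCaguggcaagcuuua
miR-22: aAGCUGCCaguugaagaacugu
miR-503*: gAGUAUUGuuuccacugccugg
miR-503: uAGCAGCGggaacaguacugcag
miR-99b*: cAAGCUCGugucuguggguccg
miR-99b: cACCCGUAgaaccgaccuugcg

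The next strands are the 2 stars of the miR-24 hairpins beside the guide they share, and the stars of miR-21 (with its partner) and miR-140, whose ratios lay below 0.

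miR-24-1*: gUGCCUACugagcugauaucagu
miR-24-2*: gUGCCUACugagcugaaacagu
miR-24: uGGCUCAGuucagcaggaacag
miR-21*: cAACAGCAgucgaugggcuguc
miR-21: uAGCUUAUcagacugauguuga
miR-140*: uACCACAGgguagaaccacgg

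In each pair the seeds of star and partner differ. miR-24-1* and miR-24-2* share their seed and a run of 16 bases, and are 23 and 22 bases long. The RefSeq positions on GRCm38.p6 are chr12:109591729-109591750 (plus strand) for miR-433*, chr4:94665206-94665227 (plus strand) for miR-872*, chr11:75463734-75463755 (plus strand) for miR-22* and chrX:53053987-53054008 (minus strand) for miR-503*. Those of the miR-24 stars are chr13:63301213-63301235 (plus strand) and chr8:84208839-84208860 (plus strand). Chromosome 12 held 5 of the 22 tested stars (miR-299*, miR-300*, miR-382*, miR-433* and miR-485*) and 13 of all 98 stars matched to a chromosome.

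Fewer star probes than partner probes gave a liver signal. A probe was above background on an array when most of its 4 spots exceeded a threshold from that array's negative controls, and it was tested when this held on at least 3 arrays of a group. By this rule 22 of the 104 stars (21.2%) were tested, beside 52 of the 99 partners (52.5%), 38.7% of the 491 mouse probes that are not stars and 35.6% of all 595 mouse probes. In the liver channel 12 stars were above background on all 12 arrays, 45 on some and 47 on none. Of the partners, 42 were above background on all 12 arrays, 30 on some and 27 on none. In the pool channel 17 stars were above background on all 12 arrays and 52 on none.

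The number of stars above background in liver was 33, 20, 21, 22, 16 and 18 on BaP arrays 1 to 6, and 54, 21, 21, 14, 21 and 20 on vehicle arrays 1 to 6. BaP 1 and vehicle 1 stood apart from the rest of their groups. They share a scan day in the file headers, and their liver thresholds of 2.89 and 1.92 intensity units were the lowest, where the other 10 arrays had thresholds of 16.2 to 28.8. Of the 33 stars that were above background on only 1 or 2 arrays, 29 were so on these 2 arrays alone, 18 of them on vehicle 1 only. None of the 33 enters the tests. The liver label held against its hepatocyte and muscle markers. miR-122, the main hepatocyte miRNA, had a log2 liver over pool ratio of 3.85 in BaP and 3.72 in vehicle livers. The muscle miRNAs miR-1, miR-133a and miR-133b were above background in liver on 0 arrays, and miR-206 on 1. The neuron miRNAs miR-124, miR-9 and miR-138 were so on 1, 2 and 0 arrays. Of the pancreas miRNAs, miR-217 was so on 0 arrays, but miR-375 on 8, with a mean log2 ratio of 0.28 in vehicle livers. The red cell, leukocyte and smooth muscle miRNAs checked were above background in liver on 10 to 12 arrays. Pairwise correlations between arrays ran from 0.897 to 0.994. They were taken only over mouse probes whose liver signal passed the threshold on 6 or more arrays.

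**Figure D1:**
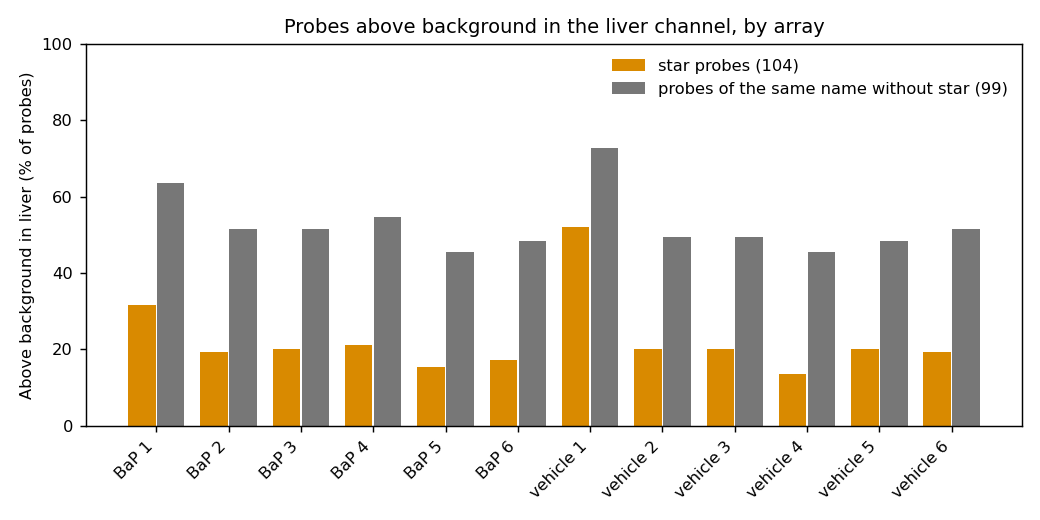
Share of probes above background in the liver channel (y axis, percent of probes) on each BaP and vehicle array (x axis), for the 104 star probes (orange bars) and the 99 partner probes (grey bars). Stars lie below partners on all 12 arrays, and BaP 1 and vehicle 1 have the highest shares of both.

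The stars that were above background on every array were miR-503*, miR-24-1*, miR-433*, miR-22*, miR-300*, miR-872*, miR-140*, miR-30e*, miR-99b*, miR-294*, miR-183* and miR-24-2*. The other 10 tested stars were let-7d*, miR-881* and miR-485* (11 arrays each), let-7b*, miR-196a* and miR-200c* (10 each), miR-382* (7), miR-455* and miR-21* (6 each) and miR-299* (3). miR-299* was above background on 3 vehicle arrays and on 0 BaP arrays. These signals were dim: the median net liver signal, after subtraction of local background, ranged from 14.0 intensity units for miR-299* to 313.0 for miR-503*. The 50 units added to every signal before the logarithm shrink ratios of dim probes, so a doubling of the net liver signal would appear as 1.22-fold for miR-299* and as 1.86-fold for miR-503*.

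Star and partner were often not above background together. In 12 of the 103 pairs both probes were tested, in 10 only the star, in 42 only the partner, and in 39 neither. The star was above background on more arrays in 18 pairs, the partner in 62, and they were equal in 23. Among the 18, miR-295*, miR-302b*, miR-18a*, miR-154* and miR-488* were above background on only 1 or 2 arrays, and their partners on 0. Some of the 62 rest on 1 or 2 partner arrays in the same way. In 9 pairs the star was tested while the partner was above background in liver on 0 arrays: miR-433*, miR-300*, miR-872*, miR-294*, miR-881*, miR-485*, miR-196a*, miR-200c* and miR-299*. For miR-872, miR-294, miR-485 and miR-299 the partner was above background in the pool on 0 arrays as well. The partners miR-300, miR-881 and miR-200c were above background in the pool on all 12 arrays, so those probes responded to RNA of other tissues. miR-140*, the strand that is commoner in mouse tissues, was above background in liver on 12 arrays and miR-140 on 3. miR-503* was above background on 12 arrays and miR-503 on 6, and miR-183* on 12 and miR-183 on 10.

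By the family of the partner, 2 of the 7 let-7 stars (let-7b* and let-7d*) were tested, and 7 of the 7 let-7 partners. let-7 represses cell growth genes in differentiated cells. Among the miR-17/92 cluster and its paralogs, which promote proliferation, 0 of 7 stars and 5 of 7 partners were tested. miR-29, which targets collagen transcripts, had 0 of 3 stars and 3 of 3 partners tested, although all 3 stars were above background in the pool on at least 3 arrays of a group. Of the miR-30 stars, 1 of 5 (miR-30e*) was tested, with 4 of 4 partners. miR-30e* shares its seed and a run of 17 bases with the star of miR-30a, whose own probe was above background in liver on 2 arrays. In the list named for liver-enriched partners, 2 of 6 stars (miR-22* and miR-455*) were tested, with 6 of 6 partners. The name was given to the list beforehand. Its partners had mean log2 ratios in vehicle livers from -0.65 for miR-378 to 2.98 for miR-193. In the list for the imprinted Dlk1-Dio3 region of chromosome 12, 4 of 12 stars (miR-299*, miR-382*, miR-433* and miR-485*) and 2 of 12 partners were tested. miR-300*, also on chromosome 12, was not in that list, and with it the counts are 5 of 13 stars and 2 of 13 partners. In the muscle and mesenchymal group 1 of 8 stars (miR-99b*) was tested, while 6 of the 8 were above background in the pool. The family lists are small, their members share clusters, and no test was made between families.

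Relative to the tissue pool, the mean log2 ratios of the tested stars in vehicle livers lay between -0.71 for miR-140* and 1.20 for miR-433*. A positive log2 ratio means more signal from liver; the deposited value table of the series runs the other way, pool over liver. The median log2 ratio of the 22 stars was 0.21 in BaP livers and 0.24 in vehicle livers, and in vehicle livers it was -0.08 over all tested mouse probes, stars included, and -0.74 over the 52 tested partners. In vehicle livers 15 of the 22 stars had a ratio above 0, beside 42.5% of all tested mouse probes. The zero point depends on the scaling: without normalization within arrays the median of all tested probes was -0.91, with median centring -0.77 and with the signals as processed by the scanner software -0.37, and 4, 5 and 14 stars lay above 0. Under each of these scalings, and with a smaller offset, 16 of the 22 stars lay above the median of all tested probes, as they did here. For scale, 174 mouse probes were below background on every array in both channels, and their ratios in vehicle livers had a median of -0.03, with the 5th and 95th percentiles at -0.14 and 0.06. Of the 22 stars, 15 lay above this range, 6 below it and 1 (let-7d*) within it.

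Only miR-433* and miR-872* exceeded the pool by 2-fold or more in vehicle liver, with all 6 arrays above 0, which is 2 of 22 beside 10.8% of all tested mouse probes; both stayed above 0 under every scaling tried, but neither reached 2-fold with median centring or without normalization. miR-433* had log2 ratios with lowest, median and highest values of 0.85, 1.03 and 1.64 in BaP livers, against 0.998, 1.12 and 1.69 in vehicle livers. In both groups the highest value came from the array of the first scan day. The means were 1.098 ± 0.29 in BaP and 1.20 ± 0.25 in vehicle livers (SD, n = 6 each), and the groups overlapped. miR-872* ranged from 0.69 to 1.44 with a median of 0.92 in BaP livers, and from 0.85 to 1.47 with a median of 1.09 in vehicle livers. Its mean was 0.998 ± 0.32 in BaP and 1.13 ± 0.26 in vehicle livers (SD, n = 6 each). Both stars belong to the pairs whose partner gave no liver signal above background.

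miR-22* followed, with lowest, median and highest log2 ratios of 0.68, 0.96 and 1.12 in BaP livers and 0.75, 0.95 and 1.12 in vehicle livers. miR-503* spanned 0.57 to 1.13 in BaP livers (median 0.75) and 0.59 to 1.09 in vehicle livers (median 0.76). All values of both stars lay above 0, and the groups overlapped. With median centring the vehicle mean of miR-22* was 0.17 and that of miR-503* was -0.07, so the sign of miR-503* depends on the scaling. miR-503* was among the highest 5 in this scaling and with offset 16, but not with median centring, without normalization or with processed signals. miR-99b* had a ratio that completed the highest 5 in this scaling, 0.51 ± 0.10 in BaP and 0.48 ± 0.08 in vehicle livers (SD, n = 6 each), but its vehicle mean was -0.06 with median centring and -0.21 without normalization, and it was no longer among the highest 5 under either or with offset 16. miR-200c* was above background in liver on 5 vehicle arrays and in the pool on none, so its ratio has only a bound, at least 1.24-fold higher in vehicle liver in this scaling. Its measured vehicle mean was 0.44 here, 0.27 with median centring and 0.13 without normalization. miR-200c is a miRNA of epithelial cells, and its partner probe behaved the opposite way, above background in the pool on 12 arrays and in liver on 0.

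**Figure D2:**
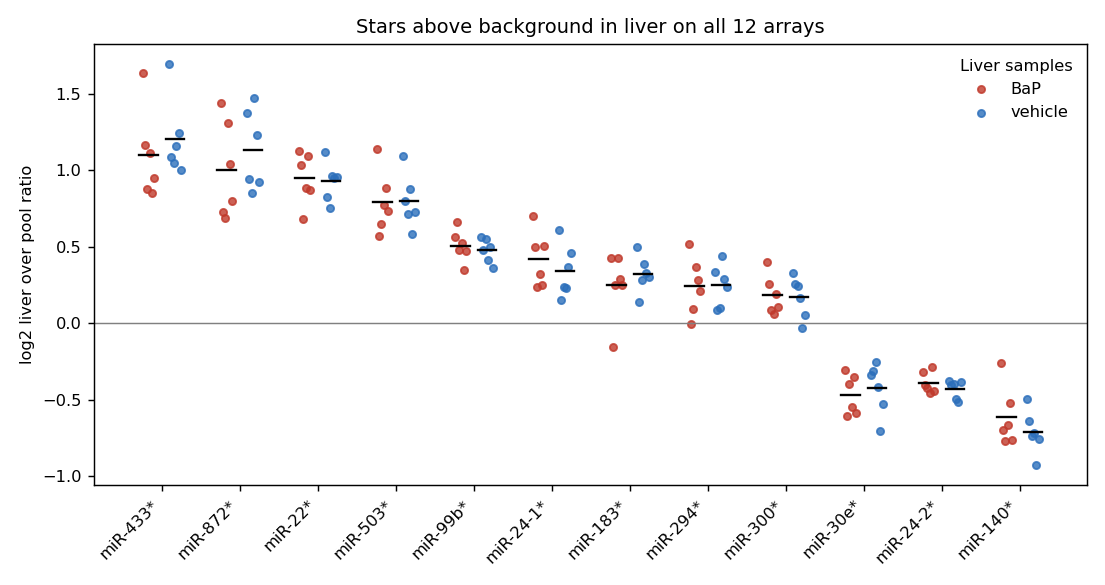
log2 liver over pool ratio (y axis) of the 12 stars above background in liver on every array (x axis), with 1 point per BaP (red) or vehicle (blue) liver and a black line at each group mean. miR-433*, miR-872*, miR-22* and miR-503* lie highest, miR-30e*, miR-24-2* and miR-140* lie below 0, and the 2 groups overlap for every star shown.

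At the low end, 1 of the 43 stars above background in the pool, miR-199b*, was at least 2-fold lower in vehicle liver, beside 19.6% of the 341 mouse probes above background in the pool. miR-199b, a miRNA of mesenchymal cells including hepatic stellate cells, had a star that was above background in liver on only 1 of 6 arrays in each group. Its measured log2 ratios were -1.26 ± 0.12 in BaP and -1.34 ± 0.20 in vehicle livers (SD, n = 6 each). With the liver signal set on each array to no less than the lowest signal above background, it was at least 2.48-fold lower in vehicle liver. The muscle star miR-133a* and the Dlk1-Dio3 stars miR-411* and miR-136* were above background in liver on 0 arrays and in the pool on 11, 12 and 11. They therefore have only bounds, and were at least 1.34-fold, 1.60-fold and 1.25-fold lower in vehicle liver in this scaling. Among the tested stars miR-140* was lowest, with lowest, median and highest log2 ratios of -0.77, -0.69 and -0.26 in BaP livers and -0.93, -0.73 and -0.50 in vehicle livers. miR-140 is known for its role in cartilage.

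The liver over pool ratio of a star was not that of its partner in the pairs where both could be tested. These pairs passed the background rule in liver, the numerator of the ratio, so their ratios are not independent of that rule. They do not stand for the stars that were not tested. In the 12 pairs with both probes tested, the star minus partner difference in log2 ratio had a median of 0.65 in vehicle livers, and of 1.26 with the signals as processed by the scanner software. The star was higher on all 6 vehicle arrays in 10 pairs, and lower on all 6 in the pairs of miR-21* and miR-455*; for miR-455* the sign turned with median centring, where the difference was 0.19. The star was higher in 10 or 11 of the 12 pairs under every scaling tried. These are differences of ratios on the same array, not of the signals of different probes, and they include both probes' dye bias and the shrinkage of the dimmer probe. The pairs of miR-24-1* and miR-24-2* share 1 partner probe and are not independent. A star without signal, whose ratio lies near 0, is also above a partner with a clearly negative ratio. In vehicle livers the 41 stars below background on every array in both channels had a median log2 ratio of -0.03. The 52 tested partners had a median of -0.74. How far the count of 10 pairs rests on the partners' own negative ratios was not tested.

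miR-503, which restrains the cell cycle together with its relatives of the miR-15/16 family, showed the widest gap. The star's ratios are given above. The partner had log2 ratios of -1.41 to -1.34 in BaP livers and -1.72 to -1.30 in vehicle livers, so that star and partner were separated on every array. The difference was 2.16 ± 0.19 in BaP and 2.28 ± 0.28 in vehicle livers (SD, n = 6 each), and the vehicle value is 4.86-fold. The partner was above background in liver on 2 BaP and 4 vehicle arrays.

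The stars of the 2 miR-24 hairpins, which yield the same guide, had different ratios. miR-24-1* had lowest, median and highest log2 ratios of 0.24, 0.41 and 0.70 in BaP livers and 0.15, 0.30 and 0.61 in vehicle livers. miR-24-2* had -0.46, -0.42 and -0.29 in BaP livers and -0.52, -0.40 and -0.38 in vehicle livers. No value of miR-24-2* reached the lowest of miR-24-1*, and miR-24-1* was the higher under every scaling tried, although both were below 0 with median centring and without normalization. The shared partner miR-24 averaged -1.38 ± 0.25 in BaP and -1.43 ± 0.25 in vehicle livers (SD, n = 6 each). The star minus partner difference was therefore 1.80 in BaP and 1.77 in vehicle livers for miR-24-1*, and 0.988 in BaP and 0.997 in vehicle livers for miR-24-2*. The 2 star sequences printed above share their first part, and whether either RNA binds the other's probe was not tested.

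miR-99b* exceeded its partner by 1.53 ± 0.06 in BaP and 1.62 ± 0.14 in vehicle livers (SD, n = 6 each), the vehicle value being 3.07-fold. miR-99b targets transcripts of growth signalling, and the partner's ratio averaged -1.02 in BaP and -1.14 in vehicle livers. For miR-22, let-7b, let-7d, miR-382, miR-183 and miR-30e the star was higher by 0.28 to 0.68 in vehicle livers. All 6 differences stayed above 0 under every scaling tried, but their sizes did not hold: that of miR-30e* was 0.04 with offset 16 and 0.69 with processed signals, and that of miR-22* was 0.17 with median centring and 1.58 with processed signals. miR-21* went the other way. The star had ratios of -0.28 ± 0.06 in BaP and -0.34 ± 0.09 in vehicle livers, while miR-21, known to rise in inflammation and fibrosis, had 0.34 ± 0.41 in BaP and 0.48 ± 0.19 in vehicle livers (SD, n = 6 each). The star minus partner difference was -0.62 ± 0.39 in BaP and -0.82 ± 0.18 in vehicle livers, below 0 on 11 of the 12 arrays. miR-455* lay below miR-455 by a smaller margin in this scaling, -0.15 ± 0.16 in BaP and -0.29 ± 0.15 in vehicle livers.

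**Figure D3:**
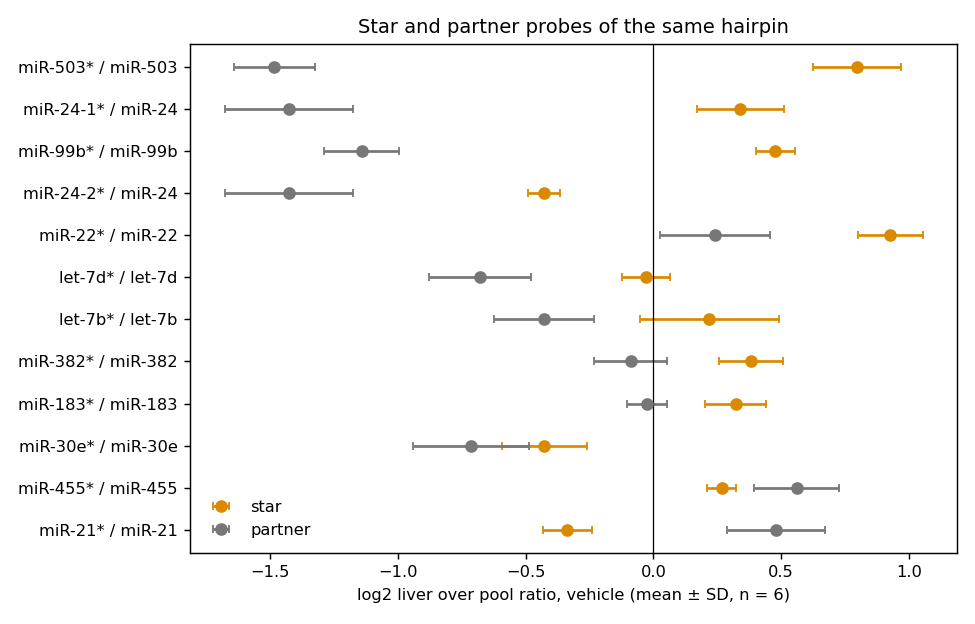
log2 liver over pool ratio in vehicle livers (x axis, mean with SD, n = 6) of star (orange) and partner (grey) for the 12 pairs with both probes tested (y axis), ordered by their difference. The star lies to the right of its partner in 10 pairs and to the left for miR-455 (where median centring turns the sign) and miR-21.

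No star differed between BaP and vehicle livers at the threshold. The question was whether passenger strands respond to BaP in liver, and it was tested with limma over all mouse probes that met the background rule, with Benjamini-Hochberg adjustment. At adjusted p 0.05, 0 of the 22 stars were called, beside 0% of all tested mouse probes. At unadjusted p under 0.05 limma gave 0 of 22, beside 0.943% of all, and the exact permutation test gave 0 of 22, beside 1.42%. The smallest unadjusted limma p among the stars was 0.242 and the smallest adjusted p was 0.992. Of the 22 stars, 11 were higher and 11 lower in BaP livers, where 59.4% of all tested mouse probes were higher. The median BaP minus vehicle difference was 0.00 for the stars and 0.02 for all tested probes on the log2 scale. In no star did the BaP and vehicle arrays separate, beside 0% of all tested probes.

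The intervals limit how large a response could have been missed on this scale. For all 22 stars the 95% interval excluded a 2-fold change up or down, and for 21 it excluded a 1.5-fold change. The median half-width was 0.18 log2 units. These limits apply to signal plus 50 units, and for the dim stars a given interval corresponds to a wider one in net signal.

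The star with the lowest difference was miR-299*, from the Dlk1-Dio3 region. It met the background rule on vehicle arrays only, the group where its mean was higher, so its difference is not independent of that rule. Its log2 ratios had lowest, median and highest values of -0.29, -0.06 and 0.02 in BaP livers, against -0.21, -0.04 and 1.35 in vehicle livers. The high value came from vehicle 5 alone, while the medians of the groups were close. The difference was -0.27 (95% interval -0.74 to 0.20; limma adjusted p 0.992), and without vehicle 5 it was -0.03. On the same array miR-877*, which was not tested, had a ratio of 1.58, where its values on the other 11 arrays lay between -0.26 and 0.25. These were the only 2 of the 104 stars with a value over 2-fold above the median of the other arrays on any array. A high value on vehicle 5 was not limited to stars. The partner probe miR-150 had a ratio of 1.60 there, and between -0.30 and 0.003 on the other 11 arrays. The cause was not tested.

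The star with the highest difference was miR-140*, at 0.10 (95% interval -0.11 to 0.30; limma adjusted p 0.992), with 4 of 6 BaP arrays above the vehicle mean. Without BaP 1 it was 0.03, below the 0.07 of let-7d*, and with the liver channel alone it was -0.08. miR-455* differed by -0.05 (-0.15 to 0.05), with values of 0.18 to 0.26 in BaP livers and 0.19 to 0.36 in vehicle livers. All 6 of its BaP values lay below the vehicle mean, and the exact permutation p was 0.0628, two-sided and unadjusted. let-7d* differed by 0.06 (-0.06 to 0.17) and miR-21* by 0.06 (-0.06 to 0.18), with 6 and 5 of 6 BaP arrays above the vehicle mean. miR-433* and miR-872*, the stars with the highest liver over pool ratios, differed by -0.11 (-0.42 to 0.20) and -0.13 (-0.46 to 0.20). Without BaP 1 these were -0.21 and -0.22, and without vehicle 1 they were -0.01 and -0.08. All of these groups overlapped, and the smallest p that the permutation of 6 against 6 arrays allows is 0.00216.

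**Figure D4:**
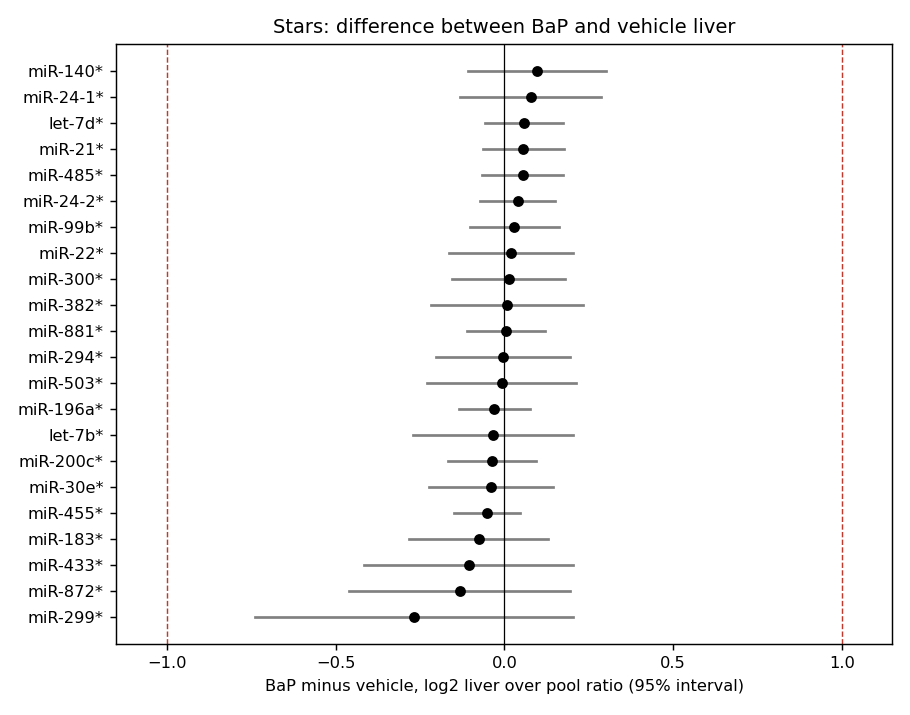
BaP minus vehicle difference in log2 liver over pool ratio (x axis) for the 22 tested stars (y axis), with 95% limma intervals (lines) and 2-fold changes marked by red dashed lines. Every interval spans 0 and none reaches the 2-fold marks; the widest belongs to miR-299*.

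Arrays were scanned on 4 days, each with both groups. Within each of the 4 days, 0 stars were higher in BaP, beside 7.55% of all tested probes, and 2 stars (miR-433* and miR-455*) were lower, beside 8.49%. With scan day as a block 0 stars were called, and the smallest limma adjusted p was 0.828.

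Whether star and partner respond differently to BaP was tested on their difference in log2 ratio on each array, with limma over all 21 pairs of arms on the array with both probes tested. These were the 12 star pairs, 2 pairs of stars left out by the rule and 7 pairs named 5p and 3p. At adjusted p 0.05, 0 of the 12 star pairs were called, beside 0% of the 21, and at unadjusted p under 0.05 limma also gave 0 of 12, beside 0% of the 21. The smallest p was that of miR-455*, whose difference from miR-455 was 0.14 higher in BaP than in vehicle livers (95% interval -0.06 to 0.34; limma p 0.146, adjusted 0.711). For miR-21* the response minus that of miR-21 was 0.20 (-0.14 to 0.53), for miR-99b* -0.09 (-0.26 to 0.07), for miR-22* -0.11 (-0.33 to 0.10) and for miR-503* -0.12 (-0.39 to 0.16). Over all 21 pairs the median size of the difference in response was 0.09 log2 units. A missed threshold does not show that the 2 strands respond alike, and the intervals give the sizes that remain possible.

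**Figure D5:**
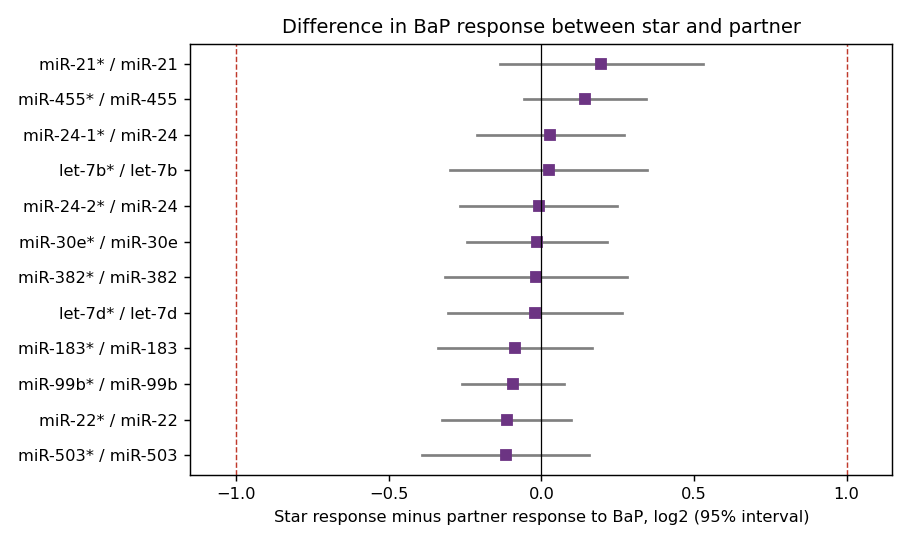
Response of the star minus response of its partner, each as BaP minus vehicle log2 ratio (x axis), for the 12 pairs with both probes tested (y axis), with 95% limma intervals (lines) and 2-fold differences marked by red dashed lines. All 12 intervals include 0 and stay within the 2-fold marks.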

How the data were processed

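Per the labels, 12 two-colour Exiqon arrays held Hy5-labelled liver RNA and a Hy3-labelled 10-tissue pool. The deposited spot values are linear intensities that the authors obtained with Agilent Feature Extraction (9.5.3.1 in the submitters' processing notes); the file headers give 9.5.1.1 on vehicle 4, vehicle 5 and BaP 4. The authors' deposited value table holds log2 ratios for 229 of the mouse probes, 5 of them tested stars. Set against the array files (correlations of 0.938 to 0.969 after turning the sign, slopes of 0.963 to 1.05), it is on the log2 scale, pool over liver. Its column medians ran from -0.09 to 0.01, and its normalization is not given in the sources used here. It served as an alternative.

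The scanner's own flag for signal above background was set for every one of 8720 spots. It was therefore replaced, after the files were seen, by the median of 28 negative control spots plus 2.6 times their scaled median absolute deviation. The factor of 2.6 is the one the file headers list. Spot signals were background-corrected by normexp (offset 50) and normalized within arrays by loess, with weight 0 for control, unnamed and flagged spots (limma 3.58.1, R 4.3.3). Unflagged spots of a probe were averaged; no star spot was saturated. Tests used lmFit and eBayes with Benjamini-Hochberg adjustment at 0.05 over 212 tested mouse probes or 21 arm pairs, and were first tested on simulated data. Exact two-sided permutation tests used all 924 regroupings. At-least folds set the brighter channel's mean against, per array, the higher of the dim probe's signal and the lowest signal above background.

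Named stars were those above background in liver on all 12 arrays or on more arrays than their partner, the 5 highest and 5 lowest ratios, the 5 smallest p for BaP, and the 5 pairs with the largest gap or smallest p. Others appear only in lists of tested or family members. Members and lists were chosen with earlier results of these data known. Star names were matched to arms from names in the files (5), locus numbers (2) or general knowledge of the hairpin (14). Precision is limited by how many arrays there are. A later collection that the design text names was not analysed here.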

Additional observations from a re-analysis of the deposited data

Results flagged for a closer look

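Within groups of 6 arrays, 36 sets of values were searched for a single array far from the rest, and 5 showed one; chance alone flags about 1 in 20 such sets. miR-183* had a log2 ratio of -0.15 on BaP 2, where the other BaP arrays lay between 0.25 and 0.42, and without that array its BaP minus vehicle difference was 0.004. miR-433* had 1.69 on vehicle 1, where the other vehicle arrays lay between 0.998 and 1.24; its BaP minus vehicle difference of -0.11 was -0.01 without that array and -0.21 without BaP 1. miR-299* had 1.35 on vehicle 5, where the others lay between -0.21 and 0.17. The number of stars above background in liver was 33 on BaP 1, where the other BaP arrays had 16 to 22, and 54 on vehicle 1, where the other vehicle arrays had 14 to 21. Both arrays belong to the first scan day and have the lowest liver thresholds; the part of the threshold in these counts was not tested.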

How the results depend on the processing

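No count of calls changed: 0 of the tested stars and 0 of the arm pairs passed adjusted p 0.05 under all 23 alternatives to each, with smallest adjusted p of 0.828 and 0.419. The number of tested stars was 19 to 28 under other background rules and settings and 21 to 22 when 1 array was left out. The count at least 2-fold lower than the pool was 4 with offset 16, 6 with the software's processed signals, 5 with median centring and 9 without normalization. The count at least 2-fold higher was 3 with offset 16, 4 with processed signals, 0 with median centring and 0 without normalization. The median BaP minus vehicle difference was 0.081 with processed signals and 0.077 with median centring, and the median star minus partner difference was 1.26 with processed signals; the cause was not tested. Leaving out BaP 1 and vehicle 1 together, an alternative chosen after seeing the data, gave 20 tested stars, 0 calls, and again 2 stars at least 2-fold above the pool.

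Single differences near 0 turned sign, none of them called. With offset 16, miR-294* was 0.015. With processed signals miR-183* was 0.0025, miR-503* 0.079, miR-294* 0.090 and miR-455* 0.0094. With median centring miR-503* was 0.090, miR-30e* 0.060, miR-294* 0.064 and miR-455* 0.032. Without normalization miR-22* was -0.0100, miR-99b* -0.0078 and miR-21* -0.0014. With the liver channel alone miR-183* was 0.036, miR-140* -0.076 and miR-24-2* -0.039, and with scan day as a block miR-294* was 0.016. Leaving out 1 array gave ranges across 0 of -0.113 to 0.0040 for miR-183*, -0.078 to 0.050 for miR-503*, -0.031 to 0.044 for miR-300*, -0.059 to 0.045 for miR-294*, -0.016 to 0.074 for miR-22* and -0.0014 to 0.062 for miR-99b*. Of the 16 tested stars followed singly through the alternatives, 5 kept their sign under all that were run. Tested stars named only for more arrays than their partner were not among the 16. Signal over background limits the dim stars most. The numbers in the titles of BaP and vehicle samples differ by 20 in all 6 cases, which no label calls a pairing. A replicate block on them, chosen after seeing the data, called 0 stars and 0 arm pairs (limma adjusted p of at least 0.952 and 0.517), and left the median difference at 0.00021. Deviations from the group means correlated at -0.08 to 0.74 within these pairs, and 4 of 6 BaP arrays correlated best with their own number.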
